A study of Caenorhabditis elegans with 36 samples.

Results

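The 6 chromatin immunoprecipitation (ChIP-seq) libraries described here measure RNA polymerase II (Pol II) in C. elegans at generations 2, 4 and 6 of growth at 23 °C. They were chosen by antibody, temperature and generation, and are 6 of the 12 Pol II libraries and of the 36 libraries in all. The strains were the wild type N2 (WT) and hrde-1(tm1200), a mutant of the germline nuclear Argonaute HRDE-1, which small RNAs guide to nascent transcripts of target genes. Each strain was moved from 15 °C to 23 °C for several generations and was later returned to 15 °C. The 2 libraries of generation 2 (23C-G2, 1 per strain) are the early heat generation. The 4 libraries of generations 4 and 6 (23C-G4 and 23C-G6 of each strain) are the late ones. All come from biological repeat 2, with 1 lineage per strain, so successive generations of a lineage stand in as replicates and the p-values refer to the scatter among these libraries alone. Chromatin came from whole young adults at every generation of 23 °C, and in whole animals fewer cells of a type and less signal per cell cannot be told apart.

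The antibody recognizes Pol II whose C-terminal repeats carry phosphate at serine 2, a form that accumulates over the bodies of genes as they are transcribed. A hermaphrodite of C. elegans first makes sperm, then switches to oocytes, and its intestine secretes yolk that the oocytes take up. Fertilized eggs begin development inside the mother, so chromatin of a whole adult can include soma, germ line and early embryos. Core histone genes are transcribed mainly when DNA is replicated, and sperm genes during spermatogenesis.

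Values are the authors' RPKM, reads per kb of gene scaled to the size of the library, with no input subtracted. The 6 libraries held an estimated 3.54 to 5.49 M reads (M, mega), and the median gene had 56 to 92 reads. Of 20116 genes tested, the median Pol II signal in a library lay between 4.11 and 5.36 RPKM. The input libraries of the same cultures were shallow, at 0.221 to 1.02 M reads. hrde-1 itself had 107, 135 and 121 RPKM in WT, in the order of the generations, and 84.8, 86.5 and 76.5 in hrde-1, which says little about the tm1200 allele, since the altered part was not read separately. The gene did not pass the late against early test (log2 change 0.10, limma adjusted p = 0.66).

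The 23C-G2 libraries stood further from the later ones than the strains stood from each other. On the log2(RPKM + 1) scale the 23C-G2 libraries of WT and hrde-1 correlated across genes at r = 0.975, above the correlation of WT 23C-G2 with WT 23C-G4 (0.953) or WT 23C-G6 (0.939). The hrde-1 23C-G4 and 23C-G6 libraries correlated at 0.983, and WT 23C-G2 with hrde-1 23C-G6 at 0.932, the lowest of the 15 pairs. Among the late libraries genotype separated more than generation. There the WT pair correlated at 0.974, and pairs of different strains at 0.963 to 0.969. Of the variance of all genes among the 6 libraries 59.2% lay between generations, made up of 44.7% for late against early and 14.5% for 23C-G6 against 23C-G4, while 24.9% lay between genotypes and 15.9% in the remainder. These percentages are a description over genes that share their libraries.

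The main comparison asks which genes changed in Pol II between early and late heat generations, whatever the strain. Of 20116 genes tested, 313 rose in Pol II (1.56%) and 248 fell (1.23%), together 2.79%. A gene was called when its limma adjusted p, with genotype as covariate, was at most 0.1 and the change reached 2-fold. In the called rises the median gene went from 3.58 RPKM as the mean of the early libraries to 9.77 in the late ones, and in the called falls from 8.59 to 2.98. Every one of the 313 rises had its 4 late libraries above both early ones, as did 4772 of all genes (23.7%). Of the falls 246 of 248 had all 4 late libraries below both early ones, as did 3108 of all genes (15.5%). The rises lay at 256 loci and the falls at 225 when genes within 1 kb were joined. The estimated reads behind the called rises were a median of 32 to 52 per gene in the early libraries and 83 to 165 in the late ones, and behind the falls 82 to 88.5 and 23 to 40. All changes below are on the log2(RPKM + 1) scale, on which weakly covered genes appear to change less than they do.

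The balance of rises and falls depended on scaling. With the log2 values of each library centred on its median 257 genes rose and 304 fell, and after quantile normalization 248 rose and 316 fell. Of the 561 called genes 505 and 495 stayed called under these scalings. The number of falls depended on the 23C-G2 libraries, with 138 without WT 23C-G2 and 426 without hrde-1 23C-G2. When the input was subtracted from Pol II, 7 genes were called, 3 of them among the 561. Before subtraction, the early mean of 264 of the 313 rises (84.3%) lay below the input RPKM of the gene, beside 63.7% of all genes. The late mean of 204 of the 248 falls (82.3%) lay below it, beside 62.1% of all genes.

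The largest rise was over aqp-2 (II:9258972-9261901 in WS190), an aquaporin gene. It had 4.1 RPKM at 23C-G2, 18.4 at 23C-G4 and 35.8 at 23C-G6 in WT, and 6.23, 28.3 and 37.3 in hrde-1. The late libraries lay above the early ones in both strains, with 23C-G6 the higher of the late ones (log2 change 2.3, SE 0.21, adjusted p = 7.2e-05). egl-46 (V:6679130-6681558), which encodes a zinc finger protein of neuronal differentiation, had 1.33, 6.77 and 13.7 RPKM in WT and 2.06, 10.1 and 15.4 in hrde-1, in the order of the generations. C40A11.10 (II:2136555-2137301) had 2.92, 12 and 18 in WT and 3.53, 14.9 and 19.1 in hrde-1, nearly the same course in both strains. Y60A3A.27, Y65A5A.1, T09B4.5, F40G9.15 and spig-12, whose products are not described here, rose by 2.05, 1.98, 1.89, 1.86 and 1.85, and hmg-11, a gene of the high mobility group family, by 1.94. The early libraries of these genes lay between 1.72 and 11.8 RPKM and the late ones between 6.47 and 47.2. Their choice required no overlap within a gene. The values of Y65A5A.1 and spig-12 came to whole reads in 4 and 3 of the 36 libraries, so reads may be shared with other genes.

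The largest fall was over C55B7.3, on chromosome I, with 195 RPKM at 23C-G2 against 28.1 and 49.5 later in WT, and 210 against 47.7 and 36.9 in hrde-1. Its signal in both early libraries was the highest of its 12 Pol II libraries (log2 change -2.33, SE 0.19, adjusted p = 4.5e-05). The falls also held 3 chemoreceptor genes, of families that encode receptors of sensory neurons. str-131 (V:8080347-8081658) had 23.4, 5.02 and 4.6 RPKM in WT and 25.2, 3.07 and 3.79 in hrde-1. srw-71 had 22.8, 3.43 and 1.94 in WT and 16.19, 3.29 and 3.89 in hrde-1. srh-243 had 27.6, 4.69 and 6.35 in WT and 31.6, 8.09 and 6.12 in hrde-1. In each of these, both early libraries were more than 2-fold above every late library, while over the whole family of 1375 chemoreceptor genes 6 fell and 2 rose, with a median of 0.16 beside 0.09 over all genes. F09E10.5 (X:1489715-1494352) had 38.3, 9.48 and 9.78 RPKM in WT and 36.6, 6.95 and 6.63 in hrde-1. F10G8.1, ZK484.7, T07A5.4, F21D12.2, nspb-12, K07A1.4 and F52G3.3 fell by 2.13, 2.16, 2.11, 2.1, 1.99, 1.94 and 1.78 on the log2 scale. The values of C55B7.3, F09E10.5 and F10G8.1 came to whole reads in 17, 7 and 18 of the 36 libraries, so reads may be shared with other genes.

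**Figure D1:**
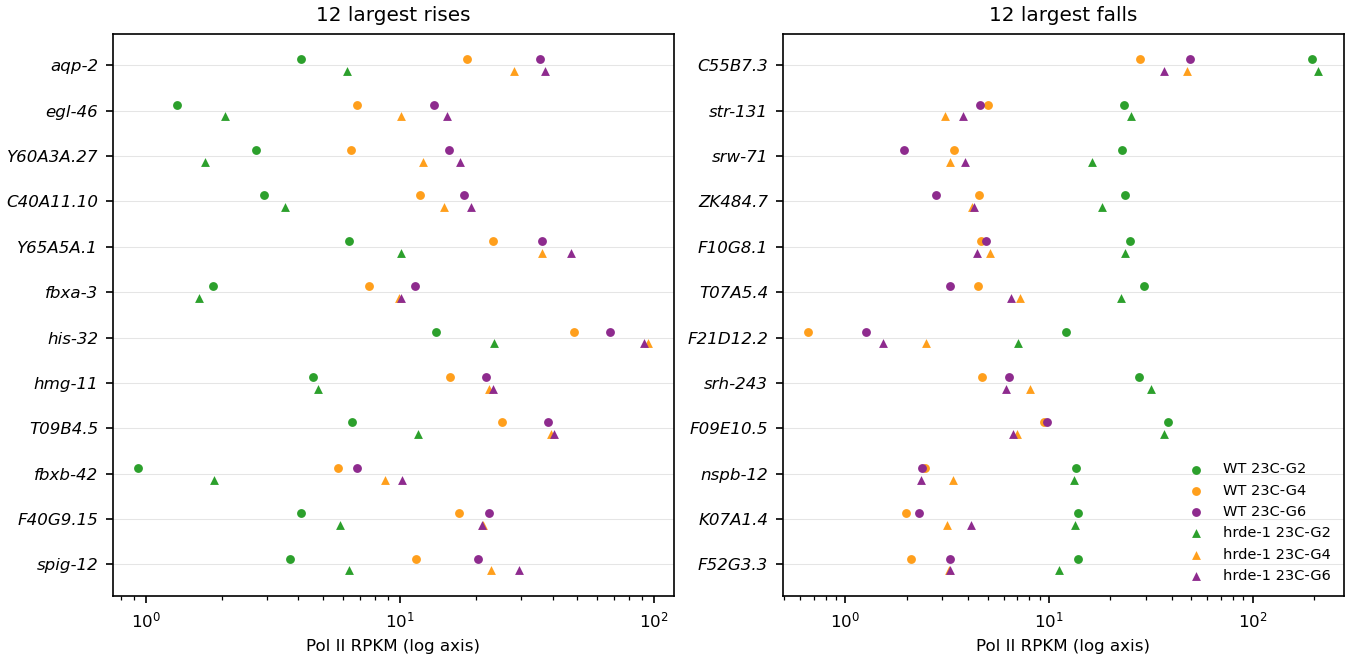
Pol II RPKM on a log axis for the 12 genes with the largest rises (left) and falls (right), circles for WT and triangles for hrde-1, coloured by generation. The genes were chosen without overlap, so the green 23C-G2 points of both strains stand apart from the 23C-G4 and 23C-G6 points in each. The values of aqp-2 run from 4.1 to 37.3 RPKM.

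Genes of the histone family made the most frequent group among the rises. Of 70 tested genes named his, which encode core histones and with his-24 one linker histone, 32 rose, 0 fell and 38 were not called, 45.7% beside 1.56% of all genes, and the median change was 0.82 beside 0.09. The copies of this family are nearly identical, reads are divided among them, and the 32 rises hold 28 distinct sets of values, so single members are uncertain. Only 9 of the 70 genes had values that came to whole reads, and of these 2 rose and 7 were not called, with a median of 0.11 beside 0.11 for all such genes, so the 0.82 rests on the genes with shared reads. The count was 30 to 42 with any 1 library left out. his-32 (IV:8334280-8334747) had 13.9, 48.7 and 67.3 RPKM in WT and 23.6, 95.3 and 91.8 in hrde-1. The histone gene his-3 on V had 17.8, 46.9 and 60.1 in WT and 23.2, 74.3 and 72.3 in hrde-1. Again each late library exceeded both early ones, and the hrde-1 library exceeded the WT library at each generation. By chromosome, 23 of 27 rose on V, 6 of 22 on IV, 3 of 3 on X and 0 of 13 on II, where the changes were 0.63 to 0.96.

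The 2 rises at whole reads, named after their values were seen, were his-71 and his-24. his-71, which encodes the replacement histone H3.3, had 2.38, 6.71 and 8.17 RPKM in WT and 2.34, 5.7 and 8.19 in hrde-1 (log2 change 1.27). The linker histone gene his-24 had 18.4, 42.2 and 49.4 in WT and 24.4, 74 and 65.9 in hrde-1. Both genes lie on X and came to whole reads in all 36 libraries. Of the 8 hil genes, which encode linker histones and relatives, hil-3 and hil-7 rose, 25% beside 1.56% of all genes. hil-3 had 8.63, 24.3 and 24.3 RPKM in WT and 12.7, 41 and 37.4 in hrde-1, a log2 change of 1.47. The call of hil-7 (log2 change 1.43) was lost without either 23C-G2 library.

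F-box proteins select substrates of SCF ubiquitin ligases, in which Skp1 proteins link them to the cullin. Of 362 F-box genes 29 rose and 1 fell, 8.01% beside 1.56%, with a median of 0.34. By chromosome, 25 of the 29 rises were among the 120 F-box genes on chromosome II, and 2, 1 and 1 lay on IV, III and V. fbxa-3 (II:1818961-1820005) had 1.84, 7.57 and 11.5 RPKM in WT and 1.62, 9.98 and 10.1 in hrde-1. fbxb-42 had 0.94, 5.74 and 6.83 in WT and 1.87, 8.73 and 10.2 in hrde-1, and fbxc-51 rose by 1.72 and fbxb-44 by 1.61. These 4 genes ran alike in the strains, low at 23C-G2 and several-fold higher afterwards. The number of rises was 19 without WT 23C-G2, 18 after quantile normalization, 2 with a pseudocount of 5 and 8 of 81 at a mean of at least 5 RPKM. Of 20 Skp1-related genes, a list added after the values were seen, 6 rose and 0 fell, 30.0% beside 1.56%, and with a pseudocount of 5 the rises were 0. skr-21 had 4.49, 8.35 and 13.5 RPKM in WT and 3.93, 14.9 and 13.3 in hrde-1. The products of the MATH and BATH families also take part in ubiquitin ligases. Of 85 such genes bath-9 and bath-10 rose, 2.35% beside 1.56%, and the median was 0.14.

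Genes that act in embryonic patterning and cell fate were read as lists of zygotic and homeobox genes. Of 61 zygotic embryonic genes 4 rose and 0 fell, 6.56% beside 1.56% of all genes. Of the 61, 54 were higher (88.5% beside 60.2% of all genes), and the median was 0.38. In 30 all late libraries lay above the early ones, as in 23.7% of all genes. The 4 rises were sdz-28 and sdz-4, found as zygotic genes under SKN-1, elt-1, the GATA factor of epidermal fate, and ref-1, a Notch-responsive bHLH gene. For sdz-28 the input mean also went up, from 2.37 RPKM early to 8.32 late (log2 change 1.48 beside 1.28 in Pol II), and with input subtracted its change was -0.67. elt-1 had 4.53, 10.1 and 15.06 RPKM in WT and 7.45, 15 and 14.7 in hrde-1. ref-1 had 2.42, 7.19 and 7.29 in WT and 3.97, 7.34 and 7.53 in hrde-1. The early libraries were lowest for both, but each call was lost without WT 23C-G2 or WT 23C-G6, and that of ref-1 also without WT 23C-G4 and under both scalings. The list counted 7 rises without hrde-1 23C-G2, 7 without hrde-1 23C-G4, 10 with a pseudocount of 0.5 and 0 with a pseudocount of 5.

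Of 83 homeobox genes 5 rose and 1 fell, 6.02% and 1.20% beside 1.56% and 1.23% of all genes (median 0.3), and with a pseudocount of 5 the calls were 0. ceh-43, a Distal-less homologue, had 4.97, 12 and 14.8 RPKM in WT and 6.41, 16.36 and 18.9 in hrde-1. unc-86, a POU gene of neuronal identity, and ceh-32, a sine oculis homologue, rose by 1.22 and 1.18, and ceh-99 fell by 1.25 on the log2 scale, a call lost without WT 23C-G2. Further regulators, singled out after their values were seen, included the proneural bHLH genes hlh-14, ngn-1 and hlh-3, with log2 changes of 1.36, 1.31 and 1.16. ham-1, required for asymmetric neuroblast divisions, had 3.95, 13.4 and 19.2 RPKM in WT and 6.1, 19.1 and 18.4 in hrde-1. ces-2, a bZIP gene of cell death specification, had 2.11, 7.5 and 13.1 in WT and 2.78, 11.3 and 13.8 in hrde-1. The cell death activator egl-1 rose by 1.29, the cyclin-dependent kinase inhibitor cki-1 by 1.54 and the forkhead gene unc-130 by 1.16. In each of these, as in all 313 called rises, all 4 late libraries lay above both early ones.

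Genes of junctions, signals and hatching, named after their values were seen, were also among the called rises. inx-3, an innexin gene, had 8.27, 31.2 and 33.7 RPKM in WT and 12.14, 32.5 and 33.6 in hrde-1. The caveolin gene cav-1 had 14.4, 54.4 and 57.9 in WT and 21.5, 71.5 and 66.1 in hrde-1 (log2 change 1.76, SE 0.11, adjusted p = 1.2e-05). Both had reached their late level by 23C-G4. The ephrin genes vab-2 and efn-4 rose by 1.03 and 1.13, the first losing its call without WT 23C-G6 or hrde-1 23C-G2 and under median centring, the second without WT 23C-G6. hch-1, the hatching protease, had 1.18, 3.02 and 6.06 RPKM in WT and 1.5, 6.3 and 8.43 in hrde-1.

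The cuticle genes were divided. Of 176 cuticle collagen genes 10 rose and 8 fell, 5.68% and 4.55% beside 1.56% and 1.23% of all genes, with a median of 0.01. dpy-17 had 10.27, 18.8 and 40.1 RPKM in WT and 12.08, 41.5 and 52.8 in hrde-1. dpy-14 had 8.35, 16.6 and 32.6 in WT and 8.58, 31.4 and 39.6 in hrde-1, and sqt-3 and col-95 rose by 1.66 and 1.73, the call of sqt-3 being lost without hrde-1 23C-G2 and under robust moderation. In dpy-17 and dpy-14 the signal grew at each step, and WT 23C-G4 was the lowest of the late libraries. sqt-1 went the other way, with 6.15, 0.79 and 1.62 RPKM in WT and 7.82, 3.49 and 3.3 in hrde-1. Its call was lost without WT 23C-G2, as were those of dpy-3, dpy-7 and dpy-10, collagen genes named after their values were seen that had risen by 1.25, 1.24 and 1.07. The list then had 6 rises and 2 falls. Without hrde-1 23C-G2 it had 5 rises and 13 falls. Of the genes of moulting and cuticle assembly 8 rose (7.69%), 1 fell (0.962%) and 95 were not called. With a pseudocount of 5 the calls of this list were 0. Its rises included noah-2, a zona pellucida domain gene (log2 change 1.36), and the lipocalin-related genes lpr-4 and lpr-6 on X (1.3 and 1.44). lpr-3, singled out later (1.25), lies next to lpr-6, and the windows of both may share reads. The calls of lpr-3 and lpr-4 were lost without hrde-1 23C-G2.

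Sperm genes were the most frequent group among the falls. Of 95 sperm genes 0 rose and 28 fell, 29.5% beside 1.23% of all genes, 81 were lower, and the median was -0.72. The count of falls was 2 of 38 among sperm genes at whole reads, 4 of 29 at a mean of at least 5 RPKM and 0 of 95 with a pseudocount of 5, with medians of -0.53, -0.37 and -0.39. Of the 30 genes for the major sperm protein (MSP), the cytoskeletal protein of crawling sperm, 19 fell (median -1.08). MSP genes are near copies of each other and none came to whole reads, so their members cannot be separated. msp-77 had 9.26, 2.33 and 1.07 RPKM in WT and 5.88, 2.15 and 3.62 in hrde-1. msd-2, which encodes an MSP domain protein, had 7.09, 2.1 and 1.59 in WT and 7.9, 1.97 and 3.49 in hrde-1. The early libraries were again above all late ones, and the low late values lie below the input mean of the gene. Without WT 23C-G2, 8 sperm genes fell, and the calls of msp-77 and msp-19 were lost. By chromosome, 19 of 42 sperm genes on IV fell, 8 of 17 on II and 1 of 23 on I.

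Other sperm genes outside that list, named after their values were seen, fell with it. alg-3 and alg-4 encode Argonautes that act in spermatogenesis. alg-3 had 6.78, 1.89 and 1.8 RPKM in WT and 5.75, 2.21 and 3.6 in hrde-1. alg-4 had 7.95, 2.59 and 2.43 in WT and 6.95, 3.19 and 4.131 in hrde-1. Both dropped by 23C-G4 in each strain. The log2 changes were -1.41 for spch-2, a sperm chromatin gene, -1.55 for ssq-2, -1.01 for smz-2 and -1.06 for pei-1, genes of sperm proteins. The calls of alg-3, alg-4, spch-2, smz-2 and pei-1 were lost without WT 23C-G2, that of pei-1 also without WT 23C-G6 and that of smz-2 also without either 23C-G4 library.

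The oogenic and common germ line were read beside the sperm genes. Of 24 oocyte and eggshell genes 0 were called and 21 were higher (87.5% beside 60.2% of all genes), with a median of 0.43. The smallest p were at egg-1, a gene of the oocyte surface needed for fertilization (log2 change 0.73), and perm-2, of the permeability barrier (0.71). Of 26 germline genes 0 were called and the median was 0.13. In syp-3, which encodes a synaptonemal complex protein, the values were 40.4, 26 and 20.8 RPKM in WT and 40.6, 23.8 and 20.5 in hrde-1 (log2 change -0.81), below the 2-fold limit. The summed signal of the sperm list was 671 and 632 RPKM in the early libraries of WT and hrde-1 and 376 to 440 in the late ones. That of the zygotic embryonic list was 271 and 309 in the early and 360 to 417 in the late, and that of the oocyte list 1042 and 1072 against 1233 to 1694. Early and late libraries did not overlap in any of these 3 sums, the stage or makeup of the animals was not scored, and its part in the gene changes was not tested.

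All 6 vitellogenin genes, which encode yolk proteins, had every late library below both early ones, as did 15.5% of all genes. Of them 4 fell (median -1), 66.7% beside 1.23% of all genes, and 1 with a pseudocount of 5. vit-2 (X:5101001-5106142) had 324, 157 and 144 RPKM in WT and 288, 139 and 118 in hrde-1 (log2 change -1.13, SE 0.16). vit-6, named after its values were seen, had 313, 177 and 185 in WT and 282, 152 and 132 in hrde-1, a log2 change of -0.89 under the 2-fold limit. In both, the late libraries lay close together and well below 23C-G2. vit-3, vit-4 and vit-5, near-identical copies, were just past 2-fold (-1.02, -1.01 and -1), and their calls were lost without WT 23C-G6, hrde-1 23C-G2 or hrde-1 23C-G6.

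Of 17 intestine genes cpr-5 and act-5 fell, 11.8% beside 1.23% of all genes. In this list 12 were lower and 5 higher, 29.4% higher beside 60.2%. The cathepsin B-like gene cpr-5 had 47.4, 20.7 and 9.55 RPKM in WT and 31.9, 10.8 and 8.74 in hrde-1, falling at each step. act-5, the actin of intestinal microvilli, had 82.8, 33.7 and 28 in WT and 63.7, 35.4 and 24.3 in hrde-1. Of 24 genes of fatty acid metabolism 21 were lower and 3 higher, 12.5% higher beside 60.2% of all genes. In 12 of them every late library lay below both early ones, as in 15.5% of all genes. One call, 4.17% beside 1.23%, was a fall of acs-2, an acyl-CoA synthetase gene (-1.19). That call was lost without hrde-1 23C-G2. fat-7, a desaturase gene, was not called (-0.51, adjusted p = 0.060). The lysozyme gene ilys-5 had 84.9, 42.2 and 24.9 RPKM in WT and 50.9, 20.2 and 16 in hrde-1. argk-1 (arginine kinase) and sodh-2 (alcohol dehydrogenase), named after their values were seen, fell by 1.2 and 1.3 on the log2 scale.

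The ribosomal protein genes formed another pattern, a small shift of nearly all members. Of 78 genes 75 were higher and 73 had all late libraries above the early ones, beside 23.7% of all genes, with a median of 0.62, but 3 rose past 2-fold. rps-27A had 61.4, 169 and 148 RPKM in WT and 60.9, 117 and 103.8 in hrde-1 (log2 change 1.1). The signal peaked at 23C-G4 in both strains. The 3 calls, with rpl-30 and rpl-10L, became 0 without WT 23C-G2, 1 without WT 23C-G4 and 7 without hrde-1 23C-G2. Median centring kept 1 and quantile normalization 0, with medians of 0.56 and 0.48. In 33 proteasome genes 0 were called and the median was 0.19, in 36 genes of mitochondrial respiration 0 and 0.18, and in 30 of DNA replication and cell cycle div-1, a subunit of DNA polymerase alpha, fell by 1.16 on the log2 scale and the median was 0.19.

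**Figure D2:**
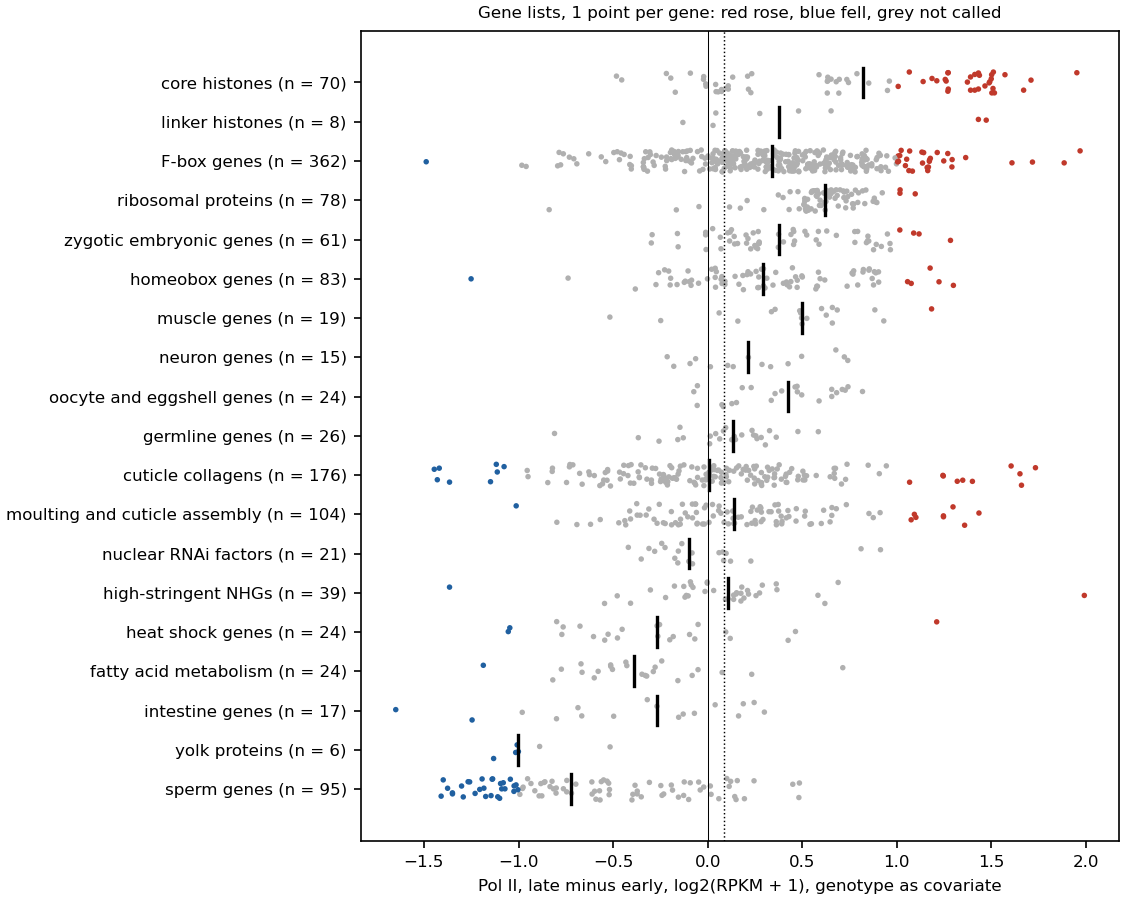
Late minus early Pol II on the log2(RPKM + 1) scale, 1 point per gene for 19 lists, red for called rises, blue for called falls and grey for genes not called. Black bars are list medians and the dotted line is the median of all genes, 0.09, and the sperm and histone lists lie furthest to each side in their numbers of calls, 28 falls and 32 rises.

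The heat shock genes gave no common rise during the heat. Of 24 genes 1 rose and 2 fell, 4.17% and 8.33% beside 1.56% and 1.23% of all genes. In this list 19 were lower, with a median of -0.27. F44E5.4 and F44E5.5, neighbouring copies of an Hsp70-type chaperone gene, had nearly the same values. F44E5.4 had 74.5, 57.6 and 28.7 RPKM in WT and 38.9, 12.58 and 19.6 in hrde-1, and both calls were lost without WT 23C-G6, hrde-1 23C-G2 or hrde-1 23C-G4. The small heat shock gene hsp-12.1 rose (1.21), a call lost without either 23C-G2 library or WT 23C-G6. hsp-16.48, induced by heat, had 39.7, 30.6 and 22.5 RPKM in WT and 16.7, 6.49 and 9.99 in hrde-1, and was not called (-0.77, adjusted p = 0.010). Of 19 muscle genes and 15 neuron genes, 1 and 0 were called, with medians of 0.5 and 0.22. The muscle gene was pat-10, a troponin C gene (1.18), and its call was lost without WT 23C-G2, WT 23C-G6 or hrde-1 23C-G2. Some larger families held few calls, set here beside rises of 1.56% and falls of 1.23% over all genes. Of 260 C-type lectins 2 rose (0.769%) and 4 fell (1.54%), and of 280 nuclear hormone receptors 1 rose (0.357%) and 0 fell. Of 188 detoxification enzymes 0 rose and 1 fell (0.532%), and of 129 pathogen response genes 1 rose (0.775%) and 2 fell (1.55%). Of 145 neuropeptide and insulin genes 0 were called. The medians of these families were 0.11 to 0.17 beside 0.09 over all genes, and 61.4% to 71.2% of members were higher beside 60.2%. The nuclear hormone receptor that rose was nhr-25, with 2.2, 4.78 and 9.25 RPKM in WT and 2.83, 9.32 and 10.6 in hrde-1.

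The genes that nuclear RNAi represses under heat were read next. The study named them NHGs, nuclear RNAi-repressed heat-inducible genes, and picked them from mRNA of this experiment, so they are not an independent list. Of 39 high-stringent NHGs 1 rose and 1 fell between early and late, 2.56% each beside 1.56% and 1.23% of all genes. The median over both strains was 0.11 beside 0.09 for all genes. Within hrde-1 it was 0.02 beside 0.10, and within WT -0.01 beside 0.06. The rise was C40A11.10, described above, whose level was alike in WT and hrde-1, and the fall was the collagen gene sqt-1. Of the 17 near a long terminal repeat (LTR) element 0 were called and the median was -0.01. Their summed signal was 467 RPKM in hrde-1 at 23C-G2, 482 at 23C-G4 and 447 at 23C-G6, against 67.4 to 76.8 in WT. In these sums the strains stood far apart at every generation of heat and the generations of a strain did not. The sums hide opposite changes of members, since 8 of the 17 genes were higher late and 9 lower. In hrde-1, fbxc-8 had 6.9, 12.7 and 11.8 RPKM in the order of the generations, and fbxa-107 had 32.9, 22.4 and 20. The values of fbxc-8 came to whole reads in 1 of the 36 libraries, so its reads may be shared with other genes. For its full NHG set, the paper reports Pol II activation in the mutant as stronger in the late heat generations than in the early one. That full set was not tested here.

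The 6 cumulative NHGs were not called over both strains either (median 0.36), with medians of 0.07 in WT and 0.38 in hrde-1. Their summed signal in hrde-1 was 108 RPKM at 23C-G2, 141 at 23C-G4 and 140 at 23C-G6. In WT it was 17.6, 19.7 and 23.3. F58H7.5 had 2.51, 2.79 and 2.19 RPKM in WT and 33.6, 57.9 and 55.6 in hrde-1, a log2 change of -0.01 in WT and 0.74 in hrde-1 (limma interaction, adjusted p = 1.0). ZC15.10 had 1.31, 2.63 and 4.05 in WT and 25.9, 32.4 and 30.9 in hrde-1. F40D4.13 had 4.29, 5.99 and 3.89 in WT and 2.78, 7.38 and 8.47 in hrde-1. For F40D4.13, the early hrde-1 library was the lowest of the 6 and the late ones the highest. Its log2 change was 0.14 in WT and 1.24, past 2-fold, in hrde-1. Over both strains the change of 0.69 passed the adjusted p (limma, 0.074) but not the fold. C18D4.6, F41G4.7 and ZC15.3 had log2 changes of 0.37, -0.08 and -0.13. ZC15.10 also passed the adjusted p (0.038) but not the fold. Of 21 nuclear RNAi factors 0 were called and the median was -0.1. The Argonaute gene nrde-3 had 5.5, 9.99 and 12.5 RPKM in WT and 6.66, 12.28 and 10.9 in hrde-1, and hpl-1, a heterochromatin protein gene, a log2 change of 0.91.

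The 2 strains were then compared in how they changed. Within WT alone 371 genes rose (1.84%) and 429 fell (2.13%), and within hrde-1 289 rose (1.44%) and 144 fell (0.716%), each strain having 1 early library that is taken to vary like the rest. No gene passed the interaction test by limma (0 called, 395 genes at an unadjusted p under 0.05, with 2 residual degrees of freedom). Across genes, the late minus early changes of WT and hrde-1, which share no library, correlated at r = 0.709 (rho 0.646, a description over 20116 genes). Of 405 genes at least 2-fold higher late in WT 400 were higher and 208 at least 2-fold higher in hrde-1, where 60.3% and 2% of all genes were. Of 454 genes at least 2-fold lower in WT 446 were lower and 127 at least 2-fold lower in hrde-1, beside 39.7% and 0.825% of all genes. Read the other way, 394 of 403 genes higher in hrde-1 were higher in WT and 165 of 166 lower genes were lower. The called rises had medians of 1.24 in WT and 1.21 in hrde-1, while the called falls had -1.43 and -1.05, with 200 of 248 falls larger in WT.

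**Figure D3:**
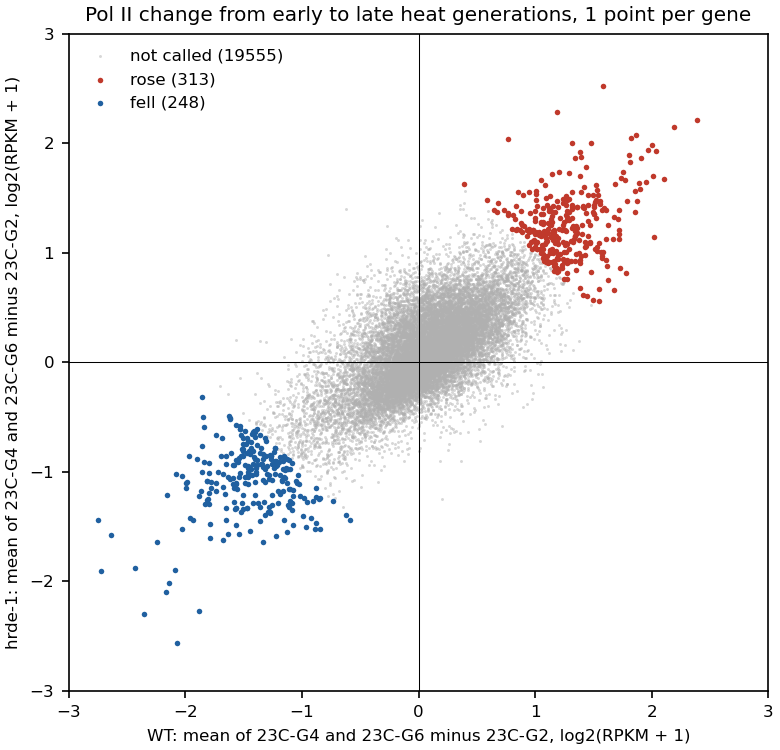
Change of Pol II from 23C-G2 to the mean of 23C-G4 and 23C-G6 in WT (horizontal) and hrde-1 (vertical), log2(RPKM + 1), 1 point per gene. The 313 rises (red) and 248 falls (blue) were called on both strains together and so lie in the corners, and the cloud of 19555 other genes slopes the same way.

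The 3 genes with the smallest interaction p are given as values. nlp-25, a neuropeptide-like gene, had 9.07, 1.98 and 2.9 RPKM in WT and 7.93, 8.63 and 10 in hrde-1. F54C9.3 had 12.55, 3.7 and 3.67 in WT and 10.6, 9.49 and 9.54 in hrde-1. F37D6.4 had 3.81, 3.97 and 5.16 in WT and 25.8, 10.7 and 9.91 in hrde-1. In the first 2 the late WT libraries stood below the other 4, and in F37D6.4 the early hrde-1 library stood alone, with unadjusted p from 0.00039 to 0.00058 and adjusted p of 1.0.

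Between the 2 late generations no gene was called (0 of 20116 by limma, 2502 at an unadjusted p under 0.05), and with median centring 3 genes rose and 12 fell from 23C-G4 to 23C-G6. The WT and hrde-1 differences of 23C-G6 minus 23C-G4 correlated across genes at r = 0.214. The called rises had a median of 0.24 in this difference and 259 of 313 were higher at 23C-G6, beside 61.5% of all genes, while the called falls had a median of -0.04. The 23C-G4 and 23C-G6 libraries had chosen these sets as their mean, so this split is a description. T19D7.5, C55C3.8 and ugt-13 had the smallest p. ugt-13 had 97.8, 85.6 and 33.8 RPKM in WT and 56.1, 107 and 33.6 in hrde-1, and its input mean was 1693 RPKM early and 224 late, far above its Pol II signal. The same held for T19D7.5 (900 and 121 in input) and C55C3.8 (778 and 103), and the part of these input levels was not tested.

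The share of called genes was read by chromosome, as a description. Rises made up 2.52% of genes on II, 1.91% on X, 1.4% on V, 1.34% on IV, 1.14% on I and 0.938% on III. Falls made up 2.46% of genes on IV and 0.612% on X, and 0.977% to 1.21% on the others. On II 25 of the 88 rises were F-box genes, and on IV 19 of the 81 falls were of the sperm list. The median change was highest on X, at 0.19 beside 0.02 to 0.11 on the autosomes, and it was higher on X in WT (0.16) and in hrde-1 (0.22). Autosome arms had 1.69% rises and 0.859% falls, and centres 1.34% and 1.72%.

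By level, the called genes lay in the middle of the range. In 10 classes of equal size by mean Pol II, classes 1 and 2 (up to 1.74 RPKM) had 0 called genes, where the added 1 RPKM limits any fold change. In class 5 (3.27 to 4.84 RPKM) 5.02% fell and 2.78% rose, and in classes 6 and 7 3.93% and 3.58% rose. Class 10, above 27.2 RPKM, had 2.14% rises and 0.895% falls. By H3K9me3, the mark of heterochromatin, classes 1 and 2 (up to 3.26 RPKM) had 0.447% and 0.149% rises and 0% and 0.149% falls. Classes 7 to 10 had 2.04% to 2.59% rises and 1.44% to 2.04% falls, so called genes were seldom those with the least H3K9me3.

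**Figure D4:**
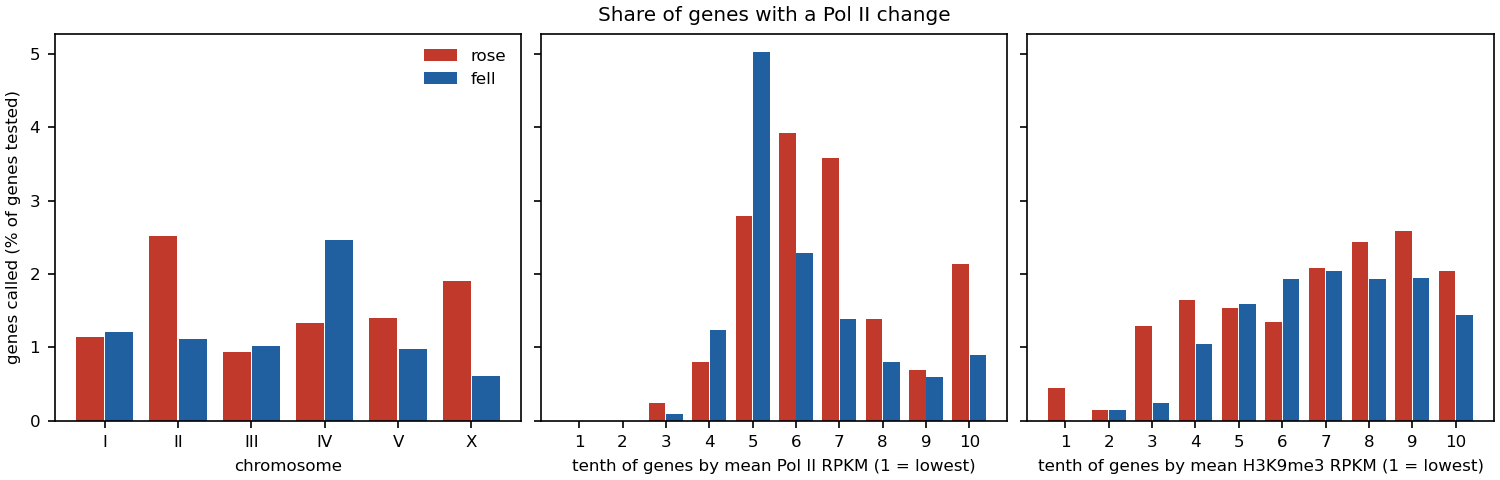
Share of tested genes called as rises (red) or falls (blue), in %, by chromosome and by 10 classes of equal size of mean Pol II RPKM and of mean H3K9me3 RPKM, from lowest to highest. Chromosome II has the highest share of rises (2.52%) and IV of falls (2.46%), and classes 1 and 2 by Pol II have 0.

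The other libraries of the same cultures gave a background. Input had 0 called genes late against early by limma and 1291 at an unadjusted p under 0.05, and its median change over the called rises and falls was 0.05 and 0.08, beside 0.11 over all genes. H3K9me3 also had 0 called genes and 2274 at an unadjusted p under 0.05. Over the called Pol II rises its median change was -0.15, with 58 of 313 genes higher, and over the called falls -0.12, with 73 of 248 higher, beside -0.05 and 37.8% for all genes. H3K9me3 was thus a little lower over both sets than over all genes, and no gene of either set was called in it.

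The 6 Pol II libraries at 15 °C played no part in the choice of the called genes. In WT the rises had a median of 5.57 RPKM at 15C-G3, before the shift, against 3.18 at 23C-G2 and 7.26 and 10.6 at 23C-G4 and 23C-G6. After the return (p15C-G1, p15C-G2) the medians were 6.09 and 6.03. The rises in hrde-1 had 3.05 at 15C-G3, 3.99 at 23C-G2, 10.5 and 11.3 late, and 6.63 and 6.29 after the return. The WT library before the shift was above 23C-G2, and the hrde-1 library below it. The falls had 2.74 RPKM in WT at 15C-G3, near the late 2.68 and 2.5 and below the 9.1 of 23C-G2, and 5.33 and 3.16 after the return. In hrde-1 they had 5.03, 7.97, 3.21, 3.56, 6.33 and 4.48 in the order of the 6 generations. In both strains 23C-G2 was the highest of the 6 generations for the falls, and in WT the lowest for the rises. The 23C-G2 libraries helped to choose both sets, so their place at the extreme follows in part from that choice and is a description. Animals were collected at other hours after larval release at 15 °C than at 23 °C, so temperature and age at collection cannot be told apart in these values.

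**Figure D5:**
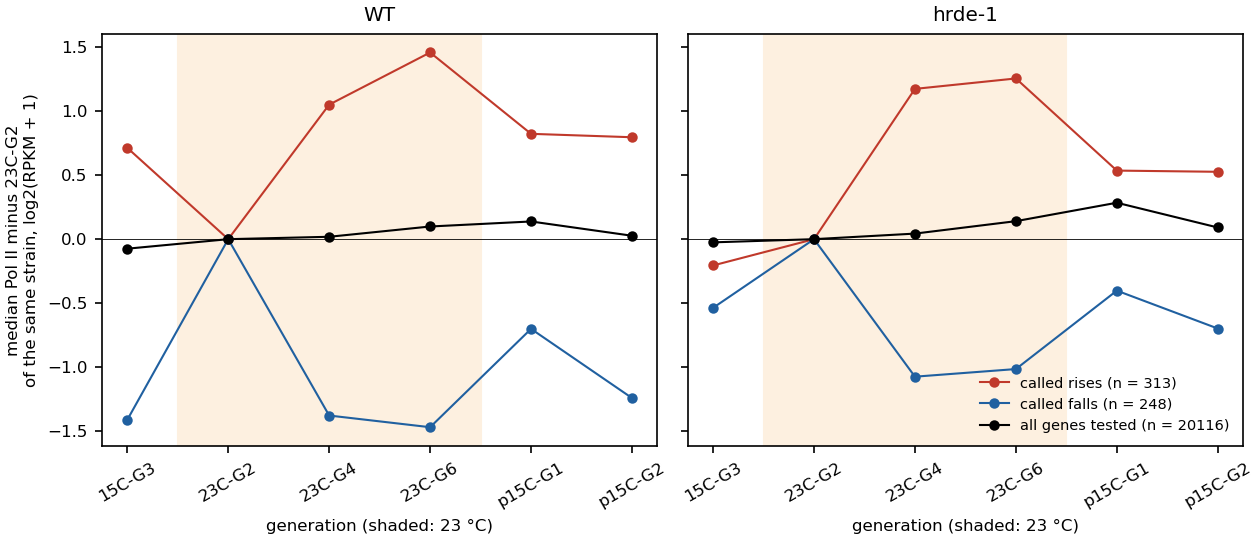
Median Pol II of the 313 rises (red), 248 falls (blue) and all 20116 genes (black) in each library, as the difference from 23C-G2 of the same strain on the log2(RPKM + 1) scale, with 23 °C shaded. The shaded points chose the sets, and the unshaded ones are measured from 23C-G2, which was among them. In the unshaded ones the WT falls at 15C-G3 lie at -1.41 and the WT rises at 0.71, while the hrde-1 rises at 15C-G3 lie at -0.21.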

How the data were processed

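ChIP-seq libraries of Pol II, H3K9me3 and input came from whole young adults. The authors aligned 50-nt single-end reads to the WS190 genome with Bowtie 0.12.7, per the submitters' processing notes, kept perfect alignments, and deposited RPKM per gene with no input subtracted. Values step in whole reads (tolerance 0.02) in 73.45% of genes of a Pol II library when 999 bp are added to gene length, so flanks appear to be counted, and these steps gave the depths. The 20911 entries were reduced to 20167 genes (first isoform), of which 19562 matched RefSeq names, and the 20116 genes averaging 1 RPKM or more across all 12 Pol II libraries and across all 12 input libraries were tested. limma 3.58.1 (R 4.3.3) with trend was run on log2(RPKM + 1), with genotype and late as terms (3 residual degrees of freedom) and Benjamini-Hochberg adjustment over all genes. Within-strain changes came from a fit of 4 means (2 residual degrees of freedom). The text names the 12 largest non-overlapping rises and falls, up to 4 called genes per list (or the 2 smallest p), the 6 cumulative NHGs, hrde-1, hsp-16.48 and fat-7, the 3 smallest p of the interaction and of 23C-G6 against 23C-G4, and others where said. Members and lists were chosen with earlier results of these data known. The pipeline was tested on simulated data. Alternatives were pseudocount, filter, scaling, input subtraction, variance model, design and each library left out. No sequences were used here.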

Additional observations from a re-analysis of the deposited data

Results flagged for a closer look

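The 141 named genes were scanned with Dixon's criterion, which chance meets in about 1 of 20 groups, so some are flagged by chance. In several, 1 of the 4 late libraries stood apart from the other 3. WT 23C-G4 was the low one in most of them. It had 15.8 RPKM over hmg-11 (others 22 to 23.4), 25.4 over T09B4.5 (38.5 to 40.4), 3.15 over hsp-12.1 (7.02 to 8.18), 10.1 over elt-1 (14.74 to 15.06), 13.9 over fbxc-51 (18.3 to 19.2), 13.4 over ham-1 (18.4 to 19.2) and 9.58 over efn-4 (15.58 to 16.43). It was also low over unc-119, not called, at 6.78 (9.62 to 9.84), and over the fall F52G3.3 at 2.1 (3.25 to 3.27). hrde-1 23C-G4 was high over nspb-12, at 3.37 (2.35 to 2.47), and WT 23C-G6 low over argk-1, at 4.01 (5.93 to 6.33).

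In 2 genes both late libraries of one strain moved against both of the other. The interaction was tested for both and did not pass (limma adjusted p = 1.0). For nlp-25 the change in hrde-1 exceeded that in WT by 1.77 on the log2 scale (-1.57 in WT, 0.21 in hrde-1). For F37D6.4 the difference was -1.45 (0.20 in WT, -1.24 in hrde-1).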

How the results depend on the processing

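The counts of 313 rises and 248 falls moved by less than 1.5 times with either scaling, no low-value filter, without a variance trend, with robust moderation, with 4 means and with all 12 Pol II libraries. Generations as a replicate block, which pairs WT and hrde-1 of a generation, gave 561 called genes and changed no call. The block, the variance models, 4 means and all 12 libraries leave the log2 changes as they were, and only p-values can move. Since 3176 genes passed an adjusted p of 0.05 with no fold minimum, these settings could change few calls and are no test of them. The counts of rises and falls were 70 and 48 with a pseudocount of 5, 201 and 110 at a mean of at least 5 RPKM, 6 and 1 with input subtracted, 224 and 164 for genes at whole reads, and 1924 and 1252 at an adjusted p of 0.05 with no fold minimum. A pseudocount of 0.5 gave 476 rises. Leaving out each library gave 262 to 418 rises and 138 to 426 falls, the extremes of the falls without WT 23C-G2 and without hrde-1 23C-G2. In the fit on subtracted input, whose median change over all genes was 0, sdz-28 changed sign (-0.67). The interaction called 0 genes, 470 with input subtracted and 1 with median centring, which moved its median from 0.02 to -0.10. The 23C-G6 against 23C-G4 test called 0 genes and 15 with median centring. Of 108 named calls 60 were lost with a pseudocount of 5, 105 with input subtracted (besides the sign change of sdz-28), 25 when WT 23C-G2 was left out, 15 for WT 23C-G6, 16 for hrde-1 23C-G2, 4 or 5 for any other library, 4 under either scaling and 2 with robust moderation. The shallow input limits any subtraction, and 1 early library per strain limits the falls.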
